A study of Mus musculus with 8 samples.

Results

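The class 3 semaphorins are the secreted guidance proteins Sema3a to Sema3g, described here with their co-receptors Nrp1 and Nrp2 (the neuropilins) and with the signalling receptor Plxnd1. These 10 genes, of 49671 in the table, were taken by symbol from the authors' deposited comparison and joined by Ensembl identifier to the estimated counts. The family was picked because Sema3f was lower in one of the groups, so every difference between the groups below is a description with no test. RNA came from reporter-positive cells that flow cytometry sorted from adult mouse lung. The 4 control mice were Gli2creERT2-tdt:R26RYFP, in which a tamoxifen-inducible Cre recombinase driven by Gli2 switches on yellow fluorescent protein. The 4 mice of the other group were Gli2creERT2-tdt:R26RYFP/SmoM2, in which the same Cre also switches on SmoM2, a Smoothened variant that signals without Hedgehog ligand. For the SmoM2 mice the protocol gives intraperitoneal tamoxifen in corn oil, with a daily dose of 200 mg/kg on 5 days. The controls' dosing, the strain and the ages were not given in the sources used here. The titles number 8 different animals, so the spread below is between mice.

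The estimated counts added up to between 91.6 and 111.6 M units in a library, which is 18.3 to 22.3 M sequenced fragments if 1 fragment adds 5 units. Levels are given as CPM (counts scaled to a common total) with library sizes scaled by TMM, edgeR's trimmed mean of M values, and a library is named by its group and the number in its column. Stromal markers were high in all 8 libraries: their 11 genes summed to 17107 to 32275 CPM in controls and 19940 to 31930 CPM in SmoM2-labelled libraries. The Hedgehog target Gli1 had a log2 fold change of 0.03 (95% interval −0.54 to 0.60) and Ptch1 one of −0.12 (−0.74 to 0.51), so neither target was clearly higher where the label names an active pathway. The group is therefore called SmoM2-labelled, and each direction below is drawn between labels. Markers of other cells were also measured. In control 4, endothelial and epithelial marker sums were the highest of the 8 (332.1 and 1665 CPM) and the stromal sum was the lowest.

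Class 3 semaphorins bind a neuropilin on the receiving cell, and a plexin passes the signal to the cytoskeleton, often by pulling the cell edge back. Sema3a acts mainly through Nrp1 and Sema3f mainly through Nrp2, while Sema3e can bind Plxnd1 without a neuropilin. Neuropilins also serve as co-receptors for vascular endothelial growth factors, and in the fetal lung several class 3 semaphorins have been studied for effects on airway branching and on vessels.

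Start-site sequence was available for 8 of the 10 genes in the RefSeq promoter table (GRCm38.p6), but not for Sema3f and Sema3b. In the 250 bases before the start, the count of CG dinucleotides ran from 2 in Sema3a and 4 in Sema3d to 32 in Nrp2 and 39 in Sema3c, against a median of 6 over all 32851 promoters of that table. Nrp1 had 11 and Plxnd1 16. These starts are those of RefSeq, and GENCODE starts some of the genes further upstream: all 250 bases of the Sema3c window, 32 of that of Nrp2 and 13 of that of Sema3g are annotated exon, and the windows of Sema3a and Nrp1 lie within the gene but outside its exons. The sequences of 3 genes are shown, since they are the least abundant gene per length (Sema3a), an abundant gene with few CG (Sema3d) and the most abundant gene (Plxnd1). CG dinucleotides are in capitals, and each runs 5′ to 3′ on the gene's strand.
Sema3a promoter (chr5:13396534-13396783, plus strand): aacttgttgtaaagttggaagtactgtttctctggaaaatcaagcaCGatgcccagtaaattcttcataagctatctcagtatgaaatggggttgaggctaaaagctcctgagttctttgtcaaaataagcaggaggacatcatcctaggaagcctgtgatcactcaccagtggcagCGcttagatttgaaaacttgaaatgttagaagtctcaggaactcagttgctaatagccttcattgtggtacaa
Sema3d promoter (chr5:12382916-12383165, plus strand): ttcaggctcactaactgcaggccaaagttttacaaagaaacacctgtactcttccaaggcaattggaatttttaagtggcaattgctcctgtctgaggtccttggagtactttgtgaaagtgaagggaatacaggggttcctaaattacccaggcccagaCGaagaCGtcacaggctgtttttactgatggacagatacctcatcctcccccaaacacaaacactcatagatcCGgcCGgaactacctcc
Plxnd1 promoter (chr6:115995006-115995255, minus strand): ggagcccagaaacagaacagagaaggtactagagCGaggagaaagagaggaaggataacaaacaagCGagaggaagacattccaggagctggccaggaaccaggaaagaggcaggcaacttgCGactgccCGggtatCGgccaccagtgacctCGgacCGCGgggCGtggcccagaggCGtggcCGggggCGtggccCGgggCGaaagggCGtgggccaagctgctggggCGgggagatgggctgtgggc
The sequences show 2, 4 and 16 CG dinucleotides. The 4 genes with 11 or more stood above 14 CPM per kb, and of the 4 with fewer, Sema3d alone stood above 2 CPM per kb (levels below). These limits were set after the values were seen, and no link between CG number and level was tested. The binding motif of GLI factors, GACCACCCA on either strand, was in none of the 8 promoters (300 bases each, of which 50 follow the start) and in 0.253% of all promoters of that table. No match says only that these letters are not in these windows. Sema3f and Sema3b were not searched.

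In mm10, 4 of the ligand genes lie on the plus strand of chromosome 5: Sema3d (ENSMUSG00000040254) from 12383385 to 12588948, Sema3a (ENSMUSG00000028883) from 13125414 to 13602565, Sema3e (ENSMUSG00000063531) from 14025276 to 14256689 and Sema3c (ENSMUSG00000028780) from 17574281 to 17730268. Sema3g (ENSMUSG00000021904) lies on chromosome 14 from 31217860 to 31230352. Nrp1 (ENSMUSG00000025810) lies on chromosome 8 from 128358604 to 128503363, Nrp2 (ENSMUSG00000025969) on chromosome 1 from 62703285 to 62818695 and Plxnd1 (ENSMUSG00000030123) on chromosome 6 from 115954811 to 115995005. The exons of the 10 genes share bases with no other annotated gene except for 80 bases of Nrp1 with the microRNA gene Mir1903.

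All 10 genes passed the filter on low counts, and edgeR's quasi-likelihood test over the whole table called 0 of them, with 0% of 20162 genes called. Of the 10 genes, 4 had a higher and 6 a lower mean estimate in SmoM2-labelled libraries. Their median log2 fold change was −0.08, beside −0.004 over all tested genes. The groups did not overlap for 1 of the 10, Sema3f, where 2.44% of all tested genes do not overlap (1.42% lower and 1.02% higher in SmoM2-labelled libraries). Nothing is read from these shares, since the family was chosen on this contrast.

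Sema3f encodes a ligand that signals mainly through Nrp2 and repels axons and endothelial cells. Its level was 20.6, 28.6, 20.6 and 24.2 CPM in control 1 to 4. SmoM2-labelled libraries 1 to 4 held 13.3, 12.9, 17.4 and 14.5 CPM. Each control stood above each SmoM2-labelled library, and the nearest were control 1 and SmoM2 3. The means were 23.5 ± 3.76 and 14.5 ± 2.02 CPM (SD, n = 4 each). The log2 fold change was −0.70 (SE 0.15, 95% interval −1.03 to −0.37), a level in SmoM2-labelled libraries of 0.617 times the control level. In the authors' deposited table the group means were 2352 and 1458 normalised units, the fold change 0.620, the p 0.00532 and the adjusted p 1. Read against the most abundant ligand of the same library, Sema3f was 0.197 ± 0.0313 times Sema3c in controls and 0.107 ± 0.0341 times in SmoM2-labelled libraries. The nearest of these ratios were control 3 (0.158) and SmoM2 3 (0.157). Read against Nrp2, Sema3f was 0.124 ± 0.0370 times in controls and 0.107 ± 0.0362 times in SmoM2-labelled libraries. Those ranges overlapped (0.0773 to 0.167 and 0.0772 to 0.159).

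Markers of mesothelium, the outer lining of the lung, moved with Sema3f between the groups. All 11 had a lower mean estimate in SmoM2-labelled libraries, with a median log2 fold change of −1.14, and their sum was 294.7 to 525.9 CPM in controls and 119.6 to 239.3 CPM in SmoM2-labelled libraries. Msln, which encodes mesothelin, averaged 101.2 ± 31.9 and 38.3 ± 12.5 CPM, Upk3b 91.3 ± 29.4 and 38.4 ± 12.9 CPM, and Wt1 5.204 ± 3.34 and 4.52 ± 3.24 CPM. Within the groups the order was not the same: SmoM2 3 held the highest Sema3f of its group with the lowest mesothelial sum, and control 3, with the highest mesothelial sum, had one of the lower Sema3f levels of its group. The part of mesothelial cells in the Sema3f difference was not tested. In sorted bulk cells, fewer cells of a type and less RNA per cell cannot be told apart. Epithelial sums were 406.2 to 1665 CPM in controls and 319.9 to 1087 CPM in SmoM2-labelled libraries, so these ranges overlapped, with 13 of 15 markers lower (median log2 fold change −0.36), while without control 4 it was 5 of 15 (median 0.13). Smooth muscle markers had a lower estimate in 6 of 6 (median −0.32, and −0.45 without control 4). Their sums were 320.8 to 501.1 CPM in controls and 226.6 to 451.4 CPM in SmoM2-labelled libraries. The highest sums lay in control 2 and SmoM2 3, the libraries with the highest Sema3f of each group. The lowest lay in control 4 and SmoM2 4, where Sema3f was next highest in each group. Pericyte markers had a lower estimate in 6 of 9 (median −0.24, and −0.14 without control 4). Those sums were 556.3 to 876.5 CPM in controls and 564.8 to 978.4 CPM in SmoM2-labelled libraries, highest in control 2 and SmoM2 1. Immune markers had a higher estimate in 9 of 10 (median 0.45, and 0.46 without control 4), with sums of 466.9 to 678.3 and 485.6 to 1441 CPM. The part of these cell types in the Sema3f difference was not tested either. None of these mesothelial, epithelial, smooth muscle, pericyte or immune markers was at 0 in all libraries.

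**Figure D1:**
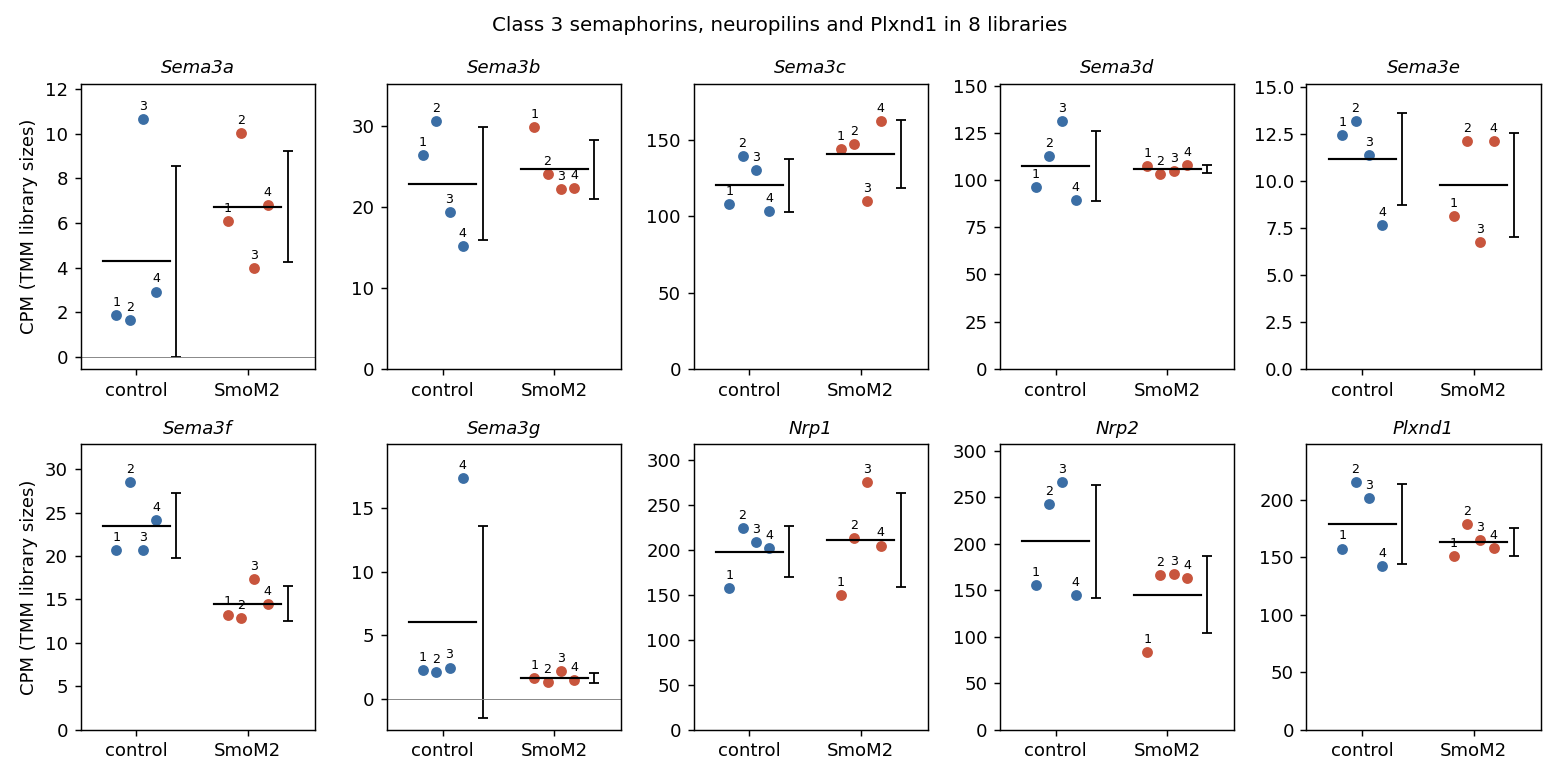
CPM of each of the 10 genes in the 4 control (blue) and 4 SmoM2-labelled (red) libraries. Numbers by the points are column numbers, horizontal lines are group means and bars are the mean ± SD. Sema3f is the gene whose groups do not overlap, while Sema3g in control 4 (17.4 CPM), Sema3a in control 3 (10.6 CPM) and Nrp2 in SmoM2 1 (83.4 CPM) stand apart from their groups.

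Sema3f lies on chromosome 9 of mm10 (ENSMUSG00000034684, 107681500 to 107710475, minus strand), 72.3 kb from Sema3b (ENSMUSG00000057969, 107597674 to 107609229, minus strand), and no annotated gene overlaps either. Of 28 other genes annotated within 200 kb of Sema3f, 23 were tested, 11 with a lower and 12 with a higher estimate. None of the 23 had groups that did not overlap, beside 2.44% of all tested genes. Over all 23, log2 fold changes ran from −0.76 (Zmynd10, 0.517 ± 0.235 and 0.306 ± 0.186 CPM) to 1.25 (Slc38a3, the nearest of them, 1.35 ± 1.18 and 3.20 ± 2.06 CPM), both with SEs above 0.5 and named after their values were seen. For the 14 of these with a mean of at least 5 CPM, a minimum chosen after their values were seen, log2 fold changes lay between −0.31 and 0.13. Sema3b, whose product binds both neuropilins, was at 26.4, 30.7, 19.4 and 15.2 CPM in control 1 to 4. The SmoM2-labelled values were, from 1 to 4, 30.0, 24.1, 22.3 and 22.4 CPM. The groups overlapped throughout, with a log2 fold change of 0.11 (SE 0.22, −0.39 to 0.60), whose sign turned without control 4 (−0.05) and without SmoM2 1 (−0.003). Sema3f stood at 0.780 to 1.59 times Sema3b in controls and 0.443 to 0.778 times in SmoM2-labelled libraries.

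**Figure D2:**
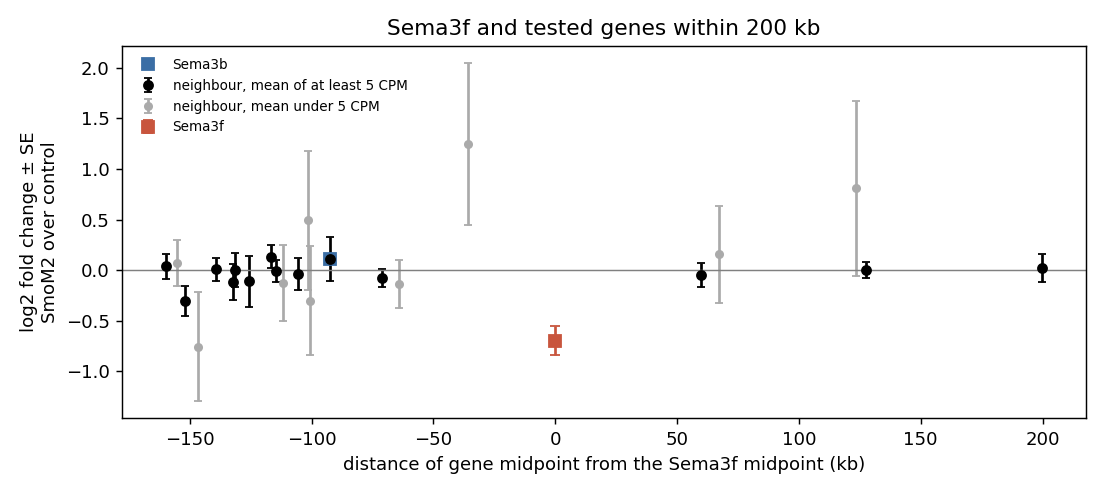
Log2 fold change (SmoM2 over control, ± SE) of Sema3f (red square), Sema3b (blue square) and the other tested genes within 200 kb, by distance in kb between gene midpoints. Black points have a mean of at least 5 CPM and lie between −0.31 and 0.13, those below that level run from −0.76 to 1.25, and Sema3f lies at −0.70.

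The most abundant ligands were Sema3c and Sema3d. Sema3c, which binds both neuropilins and is known for its role in the cardiac outflow tract, was at 108.3, 139.5, 130.3 and 103.4 CPM in control 1 to 4. Under the SmoM2 label it was at 144.2, 147.7, 110.2 and 162.8 CPM. SmoM2-labelled libraries 1, 2 and 4 lay above all controls and SmoM2 3 among them, with a log2 fold change of 0.23 (SE 0.14, −0.10 to 0.56). Sema3d, a ligand known from heart and vessel development, was at 96.5, 112.6, 131.4 and 89.4 CPM in control 1 to 4. Its SmoM2-labelled values, 1 to 4, were 107.3, 103.1, 104.9 and 108.0 CPM. All 4 SmoM2-labelled values of Sema3d lay inside the control range (log2 fold change −0.02, SE 0.12, −0.29 to 0.25), and the sign turned without control 3 (0.09). Per exon length, Sema3c took 43.7% and Sema3d 29.8% of the summed level of the 7 ligands, as means over 8 libraries. Sema3b took 11.9% and Sema3f 8.82%, the last averaging 10.9% in controls and 6.73% in SmoM2-labelled libraries. The 7 ligands together summed to 295.8 ± 36.5 CPM in controls and 304.4 ± 25.8 CPM in SmoM2-labelled libraries.

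Sema3e, the ligand of Plxnd1, was at 12.5, 13.2, 11.4 and 7.66 CPM in control 1 to 4. SmoM2 1 to 4 had 8.13, 12.1, 6.77 and 12.1 CPM. Both groups held high and low libraries, and the log2 fold change was −0.19 (SE 0.24, −0.75 to 0.36). Sema3a, a ligand of Nrp1 and the classic collapsing factor of growth cones, was the least abundant per length. It was at 1.89, 1.64, 10.6 and 2.93 CPM in control 1 to 4, and at 6.11, 10.04, 3.99 and 6.82 CPM in SmoM2-labelled libraries 1 to 4. Control 3 was the highest of the 8 while the other controls were the 3 lowest. The log2 fold change was 0.66 (SE 0.61, −0.73 to 2.04) and was 1.64 without control 3. The lowest Sema3a library held 165 units, about 33 fragments.

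Sema3g, a ligand of Nrp2 that is known from arterial endothelium, was at 2.31, 2.16, 2.48 and 17.4 CPM in control 1 to 4. In SmoM2 1 to 4 the level was 1.67, 1.34, 2.20 and 1.47 CPM. Control 4 stood 8.04 times above the median of the other 7 libraries, and of the other controls, control 2 lay within the SmoM2-labelled range and controls 1 and 3 just above it. The log2 fold change was −1.87 (SE 0.72, −3.52 to −0.22) with control 4 and −0.47 (SE 0.24, −1.02 to 0.08) without it. Of 12 endothelial markers, 8 were also highest in control 4, among them Tie1 at 9.61 times, Cdh5 at 8.69 times, Cldn5 at 8.19 times and Pecam1 at 3.48 times the median of the others. Kdr, Tek, Ramp2 and Eng were not highest there. Pecam1 ranged from 7.63 to 32.8 CPM in controls and from 7.40 to 10.96 CPM in SmoM2-labelled libraries, and Cldn5 from 1.78 to 16.6 and from 1.05 to 4.52 CPM. The endothelial median log2 fold change was −1.05 with control 4 and −0.19 without it, and none of the 12 was at 0 in all libraries. The part of endothelial cells in the Sema3g level of control 4 was not tested. The lowest Sema3g library held 117 units, about 23.4 fragments, so its small values carry a large counting error.

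**Figure D3:**
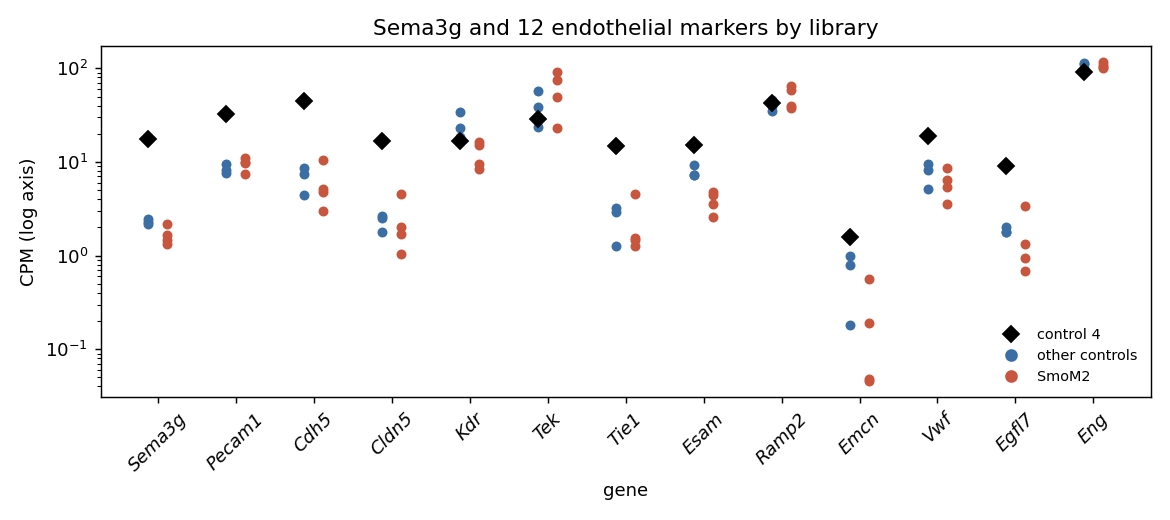
CPM (log axis) of Sema3g and 12 endothelial markers in each library: black diamonds are control 4, blue points the other controls and red points the SmoM2-labelled libraries. In control 4, Sema3g (17.4 CPM) and 8 of the markers, such as Cdh5 and Tie1, are the highest of the 8 libraries.

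Among the receptors, Nrp1 was at 157.4, 224.0, 209.3 and 202.6 CPM in control 1 to 4. For SmoM2 1 to 4 the values were 149.7, 213.6, 276.2 and 205.1 CPM. The lowest and the highest of the 8 were both SmoM2-labelled, and the log2 fold change was 0.09 (SE 0.19, −0.34 to 0.52), with the sign turning without control 1 (−0.01) and without SmoM2 3 (−0.07). Nrp2, the co-receptor through which Sema3f mainly acts, was at 155.8, 242.4, 267.0 and 145.0 CPM in control 1 to 4. The level in SmoM2 1 to 4 was 83.4, 166.9, 167.9 and 163.3 CPM. SmoM2 1 stood far below the others of its group, whose values lay between the lower and the higher controls. The means were 202.5 ± 61.2 and 145.4 ± 41.4 CPM, with a log2 fold change of −0.48 (SE 0.28, −1.11 to 0.15) that was −0.29 without SmoM2 1. Lymphatic endothelial markers, from cells known to carry Nrp2, had a lower estimate in 6 of 7, with a median log2 fold change of −0.74 that was −0.46 without control 4. In SmoM2 1, Prox1 (0.603 CPM) and Ccl21a (0.146 CPM) were the lowest of the 8 libraries, and Reln (0.710 CPM) was above control 1 alone. Other markers were not the lowest there: Lyve1 (9.36 CPM) was below SmoM2 4 and control 4 alone. Flt4 (1.16 CPM) was above SmoM2 2, SmoM2 4 and control 1, and Mmrn1 (0.438 CPM) above SmoM2 2 and control 1. Prox1, Lyve1 and Flt4 are the first 3 of the list, and the others are named after their values were seen. The summed level of the list, 74.4 to 120.1 CPM in controls and 53.7 to 136.0 CPM in SmoM2-labelled libraries, was mostly Pdpn, which made 89.7 of 102.1 CPM in SmoM2 1. None of the 7 was at 0 in all libraries, and the part of lymphatic cells in the Nrp2 level was not tested. The ratio of Nrp2 to Nrp1 was 1.02 ± 0.23 in controls and 0.686 ± 0.121 in SmoM2-labelled libraries, with ranges that overlapped (0.716 to 1.28 and 0.557 to 0.796).

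Plxnd1, the receptor of Sema3e and a partner of neuropilins in vessels, was at 157.6, 215.8, 201.2 and 142.5 CPM in control 1 to 4. SmoM2-labelled 1 to 4 gave 150.9, 179.2, 165.4 and 157.7 CPM. All SmoM2-labelled values lay inside the control range, with a log2 fold change of −0.13 (SE 0.14, −0.46 to 0.19).

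**Figure D4:**
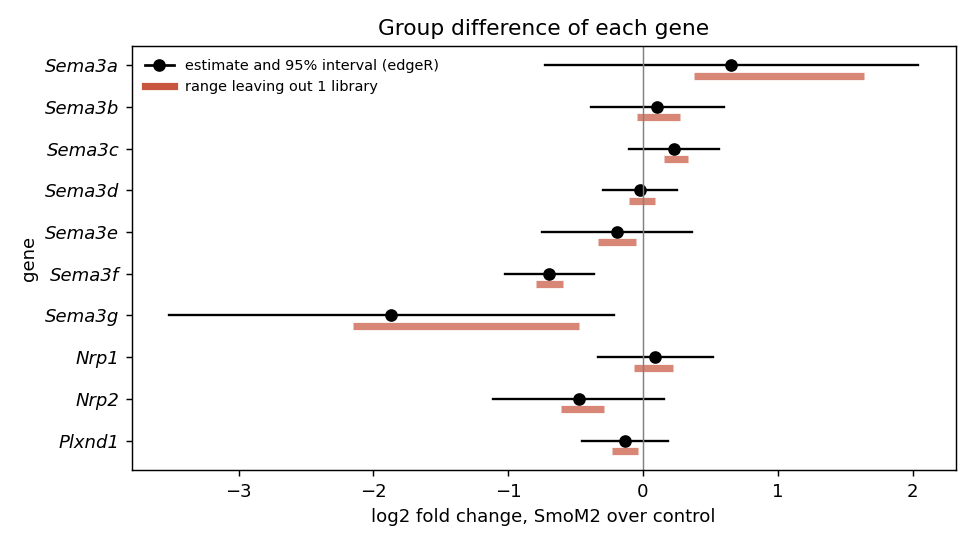
Log2 fold change of each gene, SmoM2 over control, with its 95% interval from edgeR (black) and the range of estimates when 1 of the 8 libraries is left out (red bars). Sema3f stays between −0.79 and −0.59, while Sema3g runs from −2.15 to −0.47 and Sema3a from 0.38 to 1.64.

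Levels can be set beside each other only per length, here as CPM per kb of all annotated exons of a gene, and the rule did not use them. In this order Plxnd1 averaged 23.5 ± 3.51, Nrp1 20.9 ± 4.03, Sema3c 18.3 ± 3.02, Nrp2 14.7 ± 4.83 and Sema3d 12.4 ± 1.43 CPM per kb (SD, n = 8). Then came Sema3b at 4.98 ± 1.09, Sema3f at 3.66 ± 1.07, Sema3e at 1.13 ± 0.272, Sema3g at 0.854 ± 1.21 and Sema3a at 0.397 ± 0.253 CPM per kb. The highest 5 stood above 81.7% of the tested genes, and Sema3f above 56.9%. Neighbours in the order of mean log2 level were compared within libraries by an exact two-sided paired permutation test, adjusted over 9 pairs. Sema3d was 2.53-fold above Sema3b in 8 of 8 libraries (log2 difference 1.34 ± 0.34 SD, p 0.00781, adjusted p 0.0352). Sema3f was 3.21-fold above Sema3e in 8 of 8 libraries (1.68 ± 0.53, p 0.00781, adjusted p 0.0352, exact permutation). That p is the smallest that 8 pairs allow. The other 7 neighbouring pairs did not pass, with adjusted p from 0.152 to 0.297. By exon length, the steps that passed part the order into 3 tiers. The first holds the receptors, Sema3c and Sema3d, the second Sema3b and Sema3f, and the lowest Sema3e, Sema3g and Sema3a. Within a tier neighbours did not pass the test, and genes further apart were not tested, so a tier does not mean equal levels. In the first tier, the lowest Plxnd1 library (19.5 CPM per kb) stood above the highest Sema3d library (15.3 CPM per kb). With the longest transcript as the length, both steps between tiers again passed, with an adjusted p of 0.0176 each in the exact permutation test. By that length Nrp1 came first at 56.2 CPM per kb. With that length 3 steps inside the tiers passed too. These were Nrp1 over Nrp2 and Sema3c over Sema3d (adjusted p 0.0176 each) and Sema3e over Sema3a (0.0422, exact permutation). By exon length these pairs stood in the same order but were not neighbours, so they were not tested there. What changed with the length was the place of Plxnd1 below both neuropilins, of Sema3c below Nrp2 and of Sema3g below Sema3a. In these places the order inside a tier depends on the length used.

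**Figure D5:**
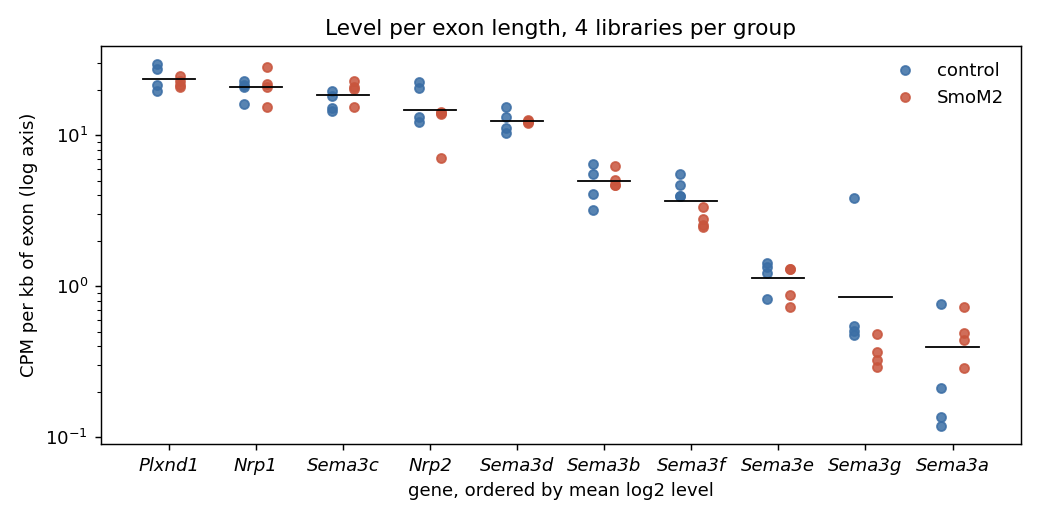
CPM per kb of exon (log axis) of the 10 genes in order of mean log2 level, with control (blue) and SmoM2-labelled (red) libraries and black lines for the mean over 8. The 2 steps that passed the paired test lie between Sema3d and Sema3b and between Sema3f and Sema3e.

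The genes also differed in how much they varied between mice of a group. The within-group SD of log2 CPM was 0.18 for Sema3d, 0.21 for Sema3f, 0.21 for Plxnd1 and 0.23 for Sema3c. These lay below the median of 0.34 over all tested genes, which are of any abundance. The same SD was 0.35 for Sema3b, 0.39 for Sema3e, 0.30 for Nrp1 and 0.47 for Nrp2. Sema3f was the reason for the choice, and a choice by group difference favours a small SD, so nothing is read from its SD. The low-abundance ligands Sema3a and Sema3g, with 0.95 and 1.05, varied more than 87.0% and 89.2% of tested genes. Much of this lay in the controls, where Sema3a in control 3 and Sema3g in control 4 stood far above the rest. The SD of CPM was 100% of the mean for Sema3a and 124% for Sema3g in controls. In SmoM2-labelled libraries it was 37.2% and 22.7%.

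The other genes of the pathway were counted from lists. Of 8 other plexins, 3 had a higher and 5 a lower estimate and 0 were called in either direction, with a median log2 fold change of −0.02. Plxnb2, a receptor of class 4 semaphorins, averaged 268.6 ± 25.2 and 260.4 ± 24.1 CPM. Plxna1, which pairs with neuropilins, averaged 158.1 ± 18.5 and 146.0 ± 14.7 CPM, and Plxna2, another such partner, 59.5 ± 29.3 and 43.2 ± 4.42 CPM. These 3 had ranges that overlapped between the groups. Of 13 other semaphorins, 6 had a higher and 7 a lower estimate and 0 were called, with a median of −0.02. Sema5a averaged 101.4 ± 7.32 and 110.6 ± 17.4 CPM, Sema4c 68.4 ± 18.9 and 51.9 ± 5.40 CPM, and Sema6a 10.5 ± 3.79 and 6.63 ± 2.77 CPM. Sema6b, named after its values were seen, was the 1 of these whose groups did not overlap, beside 2.44% of all tested genes. It was at 6.34 to 10.5 CPM in controls and 10.7 to 20.2 CPM in SmoM2-labelled libraries.

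Vascular endothelial growth factors compete with class 3 semaphorins for neuropilins. Of their 8 ligands and receptors, 1 had a higher and 7 a lower estimate and 0 were called, with a median log2 fold change of −0.30 that was −0.04 without control 4. Vegfd averaged 154.1 ± 33.5 and 133.0 ± 27.0 CPM, Vegfa 105.1 ± 22.2 and 80.4 ± 10.8 CPM, and the lymphatic receptor gene Flt4 2.12 ± 1.44 and 1.06 ± 0.47 CPM. Kdr, the main receptor of Vegfa and also an endothelial marker, ran from 16.6 to 34.2 CPM in controls and from 8.37 to 16.3 CPM in SmoM2-labelled libraries, the 1 gene of this list whose groups did not overlap, named after its values were seen. Of 25 co-receptors and intracellular signalling genes, 12 had a higher and 13 a lower estimate and 0 were called, with a median of −0.004. Dpysl3, of the collapsin response mediator family that relays semaphorin signals, averaged 353.5 ± 56.3 and 337.8 ± 29.1 CPM, and the actin-severing cofilin gene Cfl1 283.4 ± 17.2 and 291.2 ± 33.3 CPM. Mical2, an actin-oxidising enzyme of the family that binds plexins, averaged 77.2 ± 11.7 and 135.8 ± 53.2 CPM. Its ranges overlapped (63.7 to 88.4 and 82.2 to 207.6 CPM), with SmoM2 1 the highest. Gipc1, which encodes an adaptor of Plxnd1 and Nrp1, was the 1 gene of this list whose groups did not overlap. Named after its values were seen, it was at 40.4 to 41.5 CPM in controls and 27.9 to 38.7 CPM in SmoM2-labelled libraries. Beside this 1 of 25 and the 1 of 8 for Kdr, 2.44% of all tested genes have groups that do not overlap.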

How the data were processed

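Poly(A) RNA of 8 sorted samples was sequenced, per the labels' protocols. The authors deposited an estimated count per gene and library, made with tools that the submitters' processing notes list without roles (HISAT, StringTie, DESeq, FastQC; build mm10); these were whole numbers and were not rounded. They also deposited a comparison: the mean signal of a group, the ratio (fold change) of the means, the log2 of that ratio, and p-values. Its control means equal the counts over median-of-ratios size factors to a relative difference of 2.28e-09. The most frequent nonzero value was 5 units (672 to 771 genes, 490 to 584 at 4), so 5 units were taken as 1 fragment, which 4 would fit too. Reads carry no molecular identifiers, so fragment numbers cover counting error only.

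The counts were tested with edgeR 4.0.16 in R 4.3.3 (glmQLFit, robust; TMM; filterByExpr; 20162 genes; Benjamini-Hochberg adjusted p under 0.05), which was tested on simulated data. SE is the log2 fold change over the root of F. Alternatives used DESeq2 1.42.0 and limma 3.58.1. Symbols came from the reference for 99.3% of identifiers, and coordinates and exon lengths from GENCODE M21 (GRCm38, the build mm10). The members and lists were chosen with earlier results of these data known. Genes were named by rule: all 10 members, per list the 2 most abundant genes and the 1 with the largest difference (at least 1 CPM), the first 3 markers of a list, Sema3f neighbours whose groups do not overlap, and the 3 genes most like Sema3f. Not every gene so named is given. Of columns with no sample there were 0.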

Additional observations from a re-analysis of the deposited data

Results flagged for a closer look

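In each gene and group, the farthest of the 4 libraries was compared with the range of its group (Dixon's 95% criterion). Of 20 such groups 3 passed. Chance passes about 1 in 20 where values are normally distributed, which was not checked for these CPM, so the rate is only a guide. Sema3g in control 4 was at 17.4 CPM against 2.16 to 2.48 CPM in the other controls, a gap of 0.979 of the range. Sema3a in control 3 was at 10.6 CPM against 1.64 to 2.93 CPM, a gap of 0.857. Nrp2 in SmoM2 1 was at 83.4 CPM against 163.3 to 167.9 CPM in the others of its group, a gap of 0.946.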

How the results depend on the processing

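DESeq2 called 69 genes of the whole table (0.285% of those with an adjusted p) and 1 of the 10 members, Sema3f, on whose difference the family was chosen. Unadjusted p lay under 0.05 for 756 genes in edgeR and 1233 in DESeq2. Leaving out 1 library, edgeR called 0 to 1 genes (1 without SmoM2 4) and 0 to 0 members. Without TMM factors, without the filter, with limma-voom, with counts divided by 5 or with sex (read from Xist and Y-linked genes, 2 male and 2 female libraries per group) as a covariate it was 0 of both. The Sema3f log2 fold change lay between −0.79 and −0.59 in all 14 alternatives. Its difference in mean log2 CPM was −0.66 among males and −0.73 among females, with 2 libraries per group in each. A lower mean in each sex was fixed in advance, since each control stood above each SmoM2-labelled library. Sema3a moved by more than its within-group SD without control 3 and Sema3g without control 4, as given above. The list medians without 1 library ran from −0.38 to −0.037 for the growth factor list (the last without control 4), −0.10 to 0.01 for plexins, −0.05 to 0.06 for other semaphorins and −0.01 to 0.03 for the signalling list, each with 0 calls. With the longest transcript as length, 5 neighbouring pairs of levels passed and 4 of the 10 genes kept their place. Without 1 library, 0 to 4 pairs passed (4 without control 4), since 7 pairs of values raise the smallest p, and all 10 genes kept their place. No paired analysis was possible because the titles number 8 different animals and the column numbers name none of them. Depth limits Sema3a and Sema3g most, with as few as 165 and 117 units in a library.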

Other observations

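The genes whose pattern over the 8 libraries was most like that of Sema3f were sought among the 14791 genes that averaged 1 CPM or more, by the root mean square difference of mean-centred log2 CPM. This was 0.11 for Gucy1a1, a subunit of soluble guanylyl cyclase, 0.12 for Cdkn2c, an inhibitor of cyclin-dependent kinases, and 0.15 for Cracr2a, a calcium sensor, against a median of 0.45. Gucy1a1 was at 19.9, 36.9, 24.2 and 27.7 CPM in control 1 to 4. In SmoM2-labelled libraries 1 to 4 it was at 15.3, 15.1, 19.1 and 16.4 CPM. As for Sema3f, control 2 was the highest of its group and SmoM2 3 the highest of the other. Cdkn2c averaged 16.5 and 11.5 CPM and Cracr2a 35.8 and 24.9 CPM in the 2 groups. These genes were picked for their likeness over the same libraries, so their group difference is a description.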
